A study of Mus musculus with 4 samples.

Results

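C1qa and C1qb encode the A and B chains of C1q, the recognition subunit of the classical complement pathway. C1q binds antibody complexes, damaged cells and other surfaces, and with the proteases C1r and C1s it starts a cascade that leads to the cleavage of C3, whose fragments are read by receptors such as the integrin of Itgam and Itgb2. In the brain C1q is made mainly by microglia, and C1q and C3 are known for marking synapses that microglia remove. C1qc, which encodes the remaining chain, was not analysed here. C1qa and C1qb are 2 of the 397 genes of the immune panel that was read, and both were taken from the count tables of all 4 mice in cells with 40 or more genes and at most 59300 reads.

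The mice were males aged 9 months, and all carried 5XFAD, a transgenic model of amyloid deposition whose transgenes are driven in neurons by the Thy1 promoter. The groups were 2 5XFAD;Abi3-/- mice, in which Abi3 was deleted in every cell of the body, and 2 5XFAD;Abi3+/+ mice, and all of them were heterozygous for a natural Trem2 variant of the SJL background. Each mouse gave 1 library of cells from the right hemisphere without cerebellum or olfactory bulb, dissociated in the cold and depleted of myelin, so the mouse and its library cannot be told apart. The labels number the mice 1 and 2 within each genotype and do not say what the number stands for. Abi3 itself was not analysed here, so the genotypes rest on the labels alone.

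Of 21172 cells, 13820 were kept, with 61058416 and 102612276 reads in Abi3-/- mice 1 and 2 and 82557555 and 78817636 reads in Abi3+/+ mice 1 and 2. Cell indices shared by at least 2 libraries numbered 85 in all and 37 among the kept cells. C1qa and C1qb entered no rule that sorted the cells. Cells with 3 or more markers of 1 other lineage were set apart as 87 macrophages or monocytes, 314 T cells, 117 neutrophils and 53 B cells. The 13073 remaining cells with a read of Trem2, a receptor of microglia and macrophages, are called microglia here. Microglia with a read of Cx3cr1 and none of Apoe, Cst7 and Itgax were called homeostatic, and were split by reads of both immediate early genes Fosb and Egr1 (IEG-high) or not (IEG-low). Those with at least 2 of Apoe, Cst7 and Itgax, genes of disease-associated microglia (DAM), were called DAM and split by Cx3cr1. Other states had Apoe alone of these genes, at least 3 of 4 MHC class II genes, or at least 3 of 8 cycling genes. As read counts of a targeted panel, levels are given below as a percent of all panel reads of a class, and intervals cover counting error only.

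Both genes lie on chromosome 4 of the mm10 build (GRCm38), C1qb at chr4:136880126-136886200 and C1qa at chr4:136895916-136898844, with 9715 bases between them, and RefSeq holds both as protein-coding genes with exons and introns. Because the results below turn on C1qb, the 250 bases before its annotated start are shown, from RefSeq on GRCm38.p6 (chr4:136886201-136886450, minus strand, written 5′ to 3′). Of the 2 genes, C1qb alone was matched in the promoter table. Capitals mark GAGGAA, letters bound by ETS family factors such as PU.1, which was searched on both strands (TTCCTC on the other) and found 1 time, 30 bases before the start.
C1qb: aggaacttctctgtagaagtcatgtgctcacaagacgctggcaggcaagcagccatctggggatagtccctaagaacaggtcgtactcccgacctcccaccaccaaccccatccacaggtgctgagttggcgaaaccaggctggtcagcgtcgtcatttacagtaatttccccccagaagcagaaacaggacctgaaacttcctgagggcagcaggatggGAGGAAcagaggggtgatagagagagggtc
The same letters occurred in 23.3% of all 32851 promoter windows of that length, so the match is a description of this stretch and no more.

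C1qa and C1qb were among the most heavily read genes of the panel and were found in nearly every microglial cell. Reads of C1qa were present in 99.9% and 99.7% of microglia of Abi3-/- mice 1 and 2, and in 99.8% and 99.7% of those of Abi3+/+ mice 1 and 2. Reads of C1qb were present in 99.8% and 98.3% of microglia of Abi3-/- mice and in 99.8% and 97.8% of those of Abi3+/+ mice. C1qa made up 7.60% and 5.75% of microglial reads in Abi3-/- mice 1 and 2 and 6.83% and 7.95% in Abi3+/+ mice 1 and 2. The mean was 7.03% ± 0.974 (SD, n = 4 mice), and the 2 genotypes overlapped. C1qb made up 6.85% and 2.22% of microglial reads in Abi3-/- mice 1 and 2 and 5.73% and 2.41% in Abi3+/+ mice 1 and 2, with a mean of 4.30% ± 2.34 (SD, n = 4 mice). The spread of C1qb between mice was thus wider than that of C1qa, with a high and a low mouse in each genotype.

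**Figure D1:**
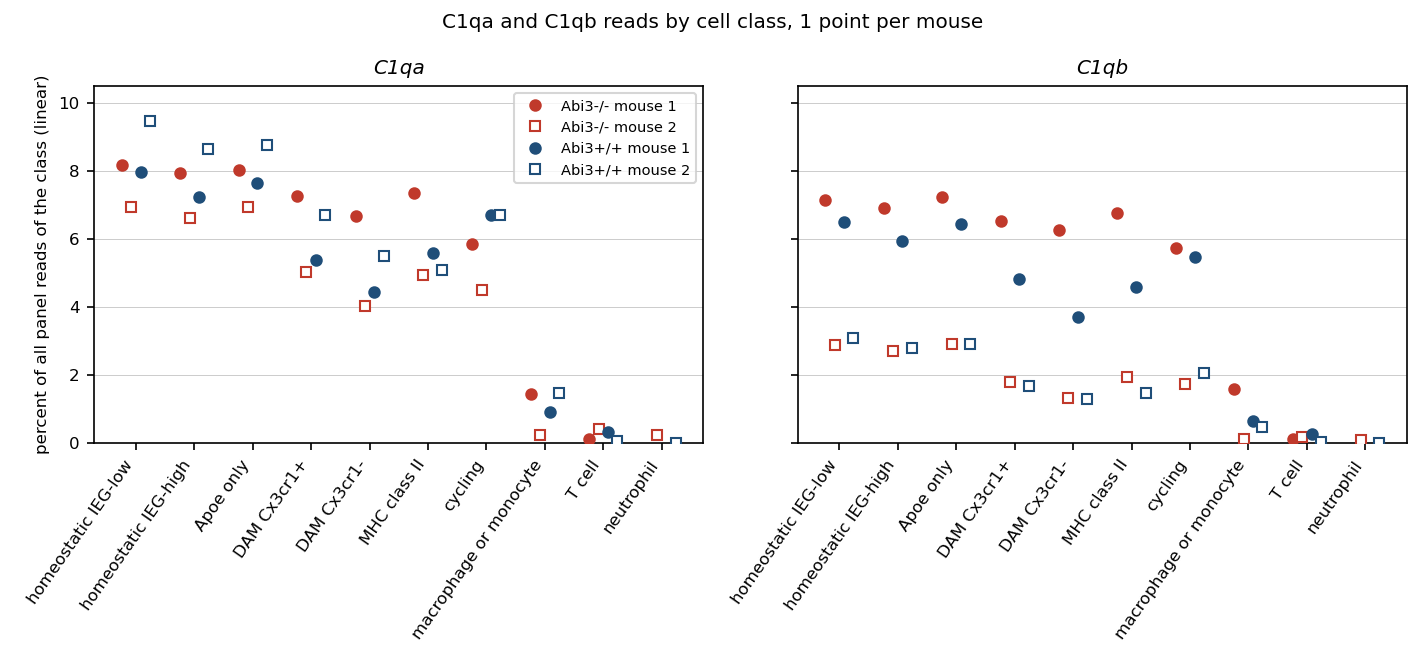
Reads of C1qa (left) and C1qb (right) as a percent of all panel reads of each cell class (y axis, linear), 1 point per mouse with 10 or more cells of the class, red for Abi3-/- and blue for Abi3+/+, filled for mice numbered 1 and open for mice numbered 2. Within each mouse, macrophages, T cells and neutrophils lie below the 7 microglial states for both genes, and in each microglial state the open points for C1qb lie below the filled ones.

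The ratio of C1qa to C1qb reads split the mice by their number. This ratio compares 2 amplified targets, so its size is not one of transcripts and it is read here only between samples. In microglia it was 1.11 in Abi3-/- mouse 1 and 1.19 in Abi3+/+ mouse 1, against 2.59 in Abi3-/- mouse 2 and 3.30 in Abi3+/+ mouse 2. The mice numbered 1 and those numbered 2 did not overlap in any of the 7 microglial states, where the ratio ranged from 1.02 to 1.22 in the former and from 2.39 to 4.23 in the latter. In macrophages or monocytes it was 0.909 and 1.40 in mice 1 and 2.03 and 3.15 in mice 2. In T cells it was 1.20 and 1.24 in mice 1 and 2.23 and 3.85 in mice 2. The cells that carried few reads of these genes thus showed the same order of mice as microglia. Within each number the ratio was lower in the Abi3-/- mouse than in the Abi3+/+ mouse in these 3 classes and in 7 of 7 microglial states, a smaller difference than that between the numbers, which rests on 1 mouse per genotype and number and was not tested.

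The split lay in C1qb. In TMM-normalized log2 CPM of microglia, C1qb was 1.56 higher in mouse 1 than in mouse 2 of Abi3-/- and 1.30 higher in Abi3+/+, while the same differences of C1qa were 0.34 and -0.17. The median absolute difference over both genotypes and 328 genes was 0.41. Of 93 genes with a mean of 10 or more on this scale, 0 others differed as much in the same direction in both genotypes, and the next was Apoe, at 0.73 and 0.76. Over all 328 genes, 19 others did, none with a mean above 5.72, against 15.2 for C1qb. With the mouse number added as a term beside genotype, a fit chosen after the split was seen, C1qb was lower in mice 2 by a log2 difference of -1.43 (SE 0.13, adjusted p = 0.205, edgeR quasi-likelihood test). In that fit 0 of 328 genes passed (percent called 0), with 27 at an unadjusted p under 0.05. With DESeq2, which called 21 genes, C1qb was at -1.47 (SE 0.19, adjusted p = 9.9e-13), and with limma, which called 0, at -1.69 (adjusted p = 0.378). C1qa was at -0.09 in the edgeR fit (SE 0.17, adjusted p = 0.891).

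Single cells showed the same split as a shift of the whole distribution. The median homeostatic cell held 1650 and 1084 reads of C1qa in Abi3-/- mice 1 and 2 and 1346 and 1797 in Abi3+/+ mice 1 and 2. For C1qb these medians were 1392.5 and 423 in Abi3-/- mice and 1033 and 544.5 in Abi3+/+ mice, so that both mice numbered 2 were low. Microglia with no read of C1qb made up 0.183% and 0.191% of cells in the mice numbered 1 and 1.73% and 2.23% in the mice numbered 2. The lowest count in a positive cell ranged from 8 to 21 reads over both genes and all 4 libraries, so cells with fewer reads of either gene were listed at 0. The labels name no library batch, and what the number of a mouse stands for was not tested.

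**Figure D2:**
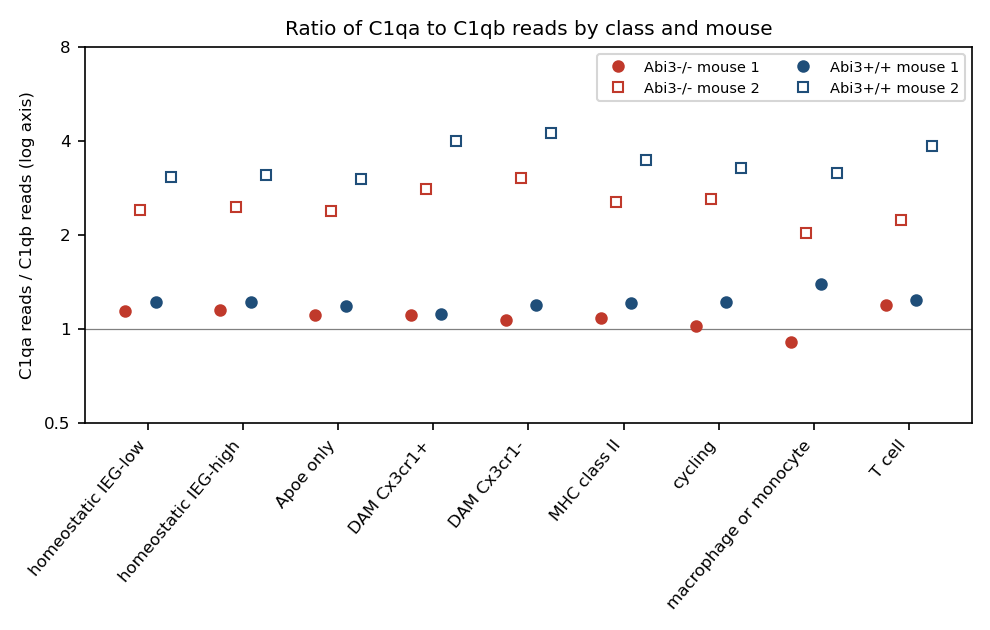
Reads of C1qa divided by reads of C1qb (y axis, log scale with base 2) in 7 microglial states, macrophages or monocytes and T cells, 1 point per mouse, colours and symbols by genotype and mouse number. The open points (mice 2) lie between 2.03 and 4.23 and the filled points (mice 1) between 0.909 and 1.40.

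**Figure D3:**
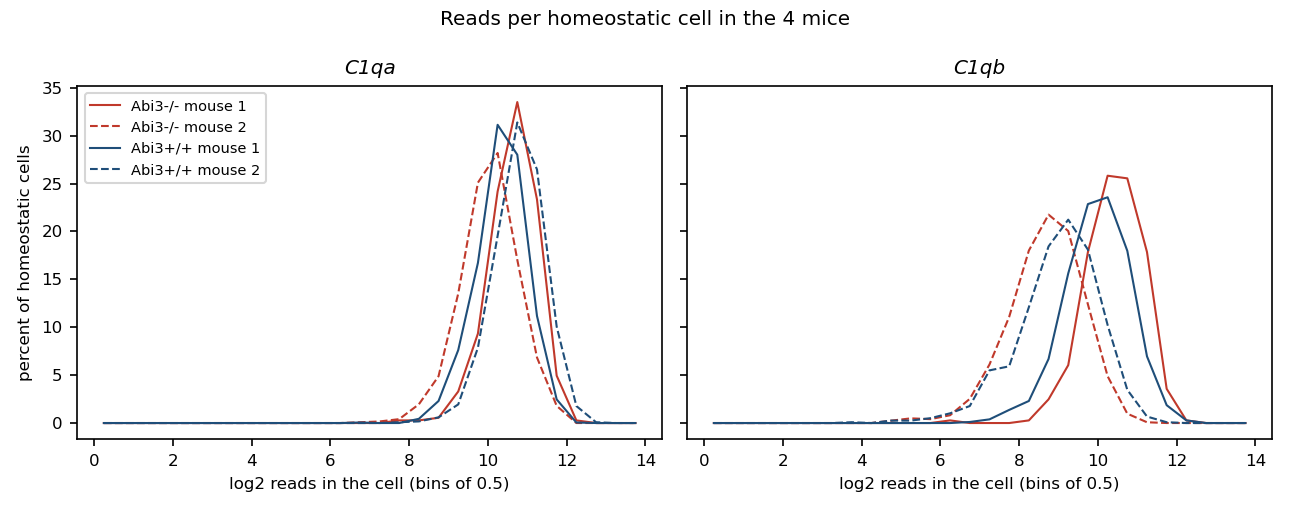
Percent of homeostatic cells (y axis) by log2 reads of C1qa (left) or C1qb (right) in the cell, in bins of 0.5, 1 line per mouse, red for Abi3-/- and blue for Abi3+/+, solid for mice 1 and dashed for mice 2, with cells at 0 reads left out of the lines. The C1qb lines of both mice 2 lie to the left of those of mice 1, with medians of 423 and 544.5 reads against 1392.5 and 1033.

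The next comparison asked whether C1q differs between microglial states. As a share of panel reads both genes were lower in DAM than in homeostatic microglia of each of the 4 mice. The median number of C1qa reads per cell was higher in DAM of each mouse. The median depth of a cell was higher in DAM too, and whether depth accounts for the C1qa count was not tested. C1qa made up 8.11% of homeostatic reads and 7.23% of DAM reads in Abi3-/- mouse 1, and 6.82% and 4.91% in Abi3-/- mouse 2. In Abi3+/+ mouse 1 it made up 7.55% and 5.24%, and in Abi3+/+ mouse 2 it made up 9.02% and 6.30%. On the log2 scale the share was lower in DAM by a mean of -0.42 ± 0.17 (SD, n = 4 mice, exact sign-flip test, two-sided p = 0.125, the smallest that 4 mice allow). With every cell thinned to 10000 reads before it was classed, the mean was -0.37 ± 0.16. The median DAM cell nevertheless held 2080.5, 1295, 1511 and 1865.5 C1qa reads in the order of mice above, against 1650, 1084, 1346 and 1797 in homeostatic cells. The median depth of a cell was 27982 reads in DAM and 18449 in homeostatic cells.

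C1qb followed C1qa in the mice numbered 1 and was lower still in DAM of the mice numbered 2. Its share was 7.10% of homeostatic and 6.52% of DAM reads in Abi3-/- mouse 1, and 6.19% and 4.65% in Abi3+/+ mouse 1. In Abi3-/- mouse 2 it was 2.81% and 1.73%, and in Abi3+/+ mouse 2 it was 2.92% and 1.54%. The log2 difference was -0.12 and -0.41 in the mice numbered 1 and -0.70 and -0.92 in those numbered 2, with a mean of -0.54 ± 0.35 (SD, n = 4 mice, exact sign-flip test, p = 0.125). Median C1qb reads per cell were 1839 and 1292 in DAM of mice 1, above their homeostatic medians, and 427.5 and 385.5 in DAM of mice 2, near or below theirs. The ratio of C1qa to C1qb accordingly was 1.11 and 1.13 in DAM of mice 1, against 1.14 and 1.22 in homeostatic cells, and 2.84 and 4.08 in DAM of mice 2, against 2.43 and 3.09.

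For C1qa these differences in share were about those of the typical panel gene, while C1qb lay below it in the mice numbered 2. Relative to the median of all genes tested, whose share also was lower in DAM by log2 values of -0.18 to -0.50, C1qa differed by 0.05, 0.05, -0.02 and -0.08 in Abi3-/- mice 1 and 2 and Abi3+/+ mice 1 and 2. C1qb differed by 0.09 and 0.09 in the mice numbered 1 and by -0.18 and -0.47 in those numbered 2. In the edgeR fit over all classes, with the genes of the class rules left out, DAM against homeostatic gave 0.28 for C1qa (SE 0.59, adjusted p = 0.97) and 0.13 for C1qb (SE 0.48, adjusted p = 1), where 18.2% of 313 genes passed. The sign in that fit turned with the scaling, to -0.48 and -0.61 with library sizes alone, and its spread was shared with T cells, neutrophils and B cells. Leaving out any 1 mouse brought its values to between -0.0018 and 0.073 for C1qa and between -0.20 and 0.037 for C1qb. Fitted over the 7 states alone, a choice made after seeing the data, the values with TMM were 0.03 for C1qa (SE 0.06, adjusted p = 0.73) and -0.10 for C1qb (SE 0.08, adjusted p = 0.33), where 48.6% of 253 genes passed. With library sizes alone they were -0.48 (SE 0.07, adjusted p = 3.8e-06) and -0.61 (SE 0.10, adjusted p = 1.0e-05), while the median gene moved from -0.06 to -0.55 and 39.5% of 253 genes were called lower. Over the 7 states, both genes were thus called lower in DAM with library sizes alone and neither was called with TMM.

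**Figure D4:**
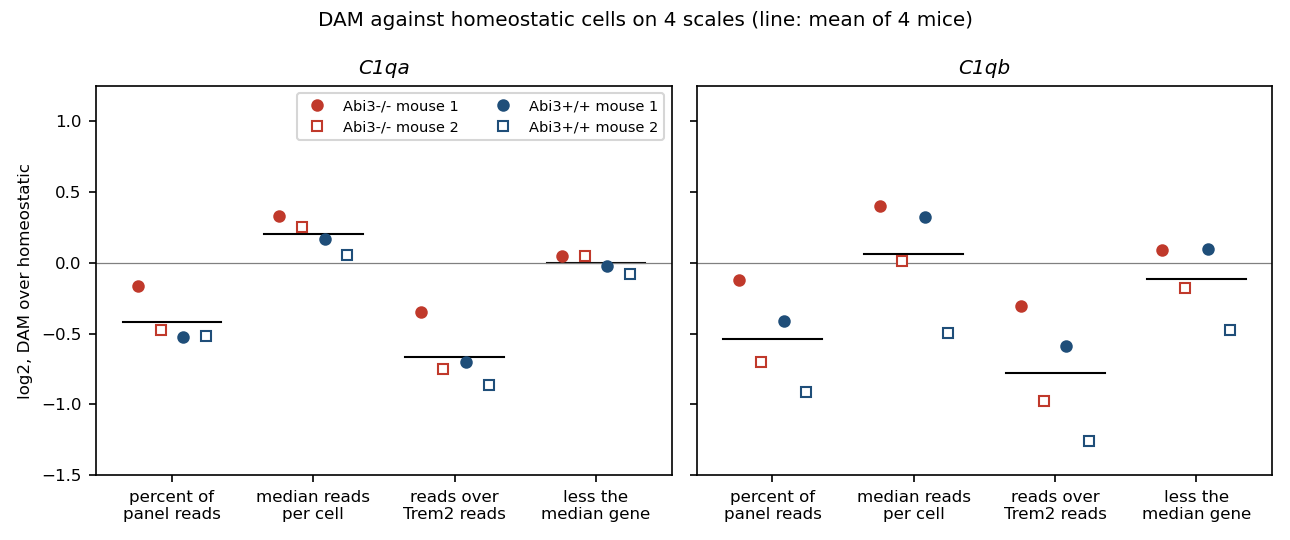
Log2 of the value in DAM over that in homeostatic microglia (y axis) for C1qa (left) and C1qb (right) on 4 scales, 1 point per mouse with colours and symbols by genotype and mouse number, and a line at the mean of 4 mice. C1qa is below 0 as a share of reads and over Trem2 reads, above 0 as median reads per cell, and within -0.08 and 0.05 once the median gene is subtracted.

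Within DAM, cells without a Cx3cr1 read held fewer C1q reads than cells with one. The median C1qa count was 1473, 758, 847 and 1351.5 in DAM without Cx3cr1 of Abi3-/- mice 1 and 2 and Abi3+/+ mice 1 and 2, against 2108, 1384.5, 1635.5 and 2096 in DAM with it, lower in 4 of 4 mice. As a share of reads C1qa was lower by a mean log2 difference of -0.25 ± 0.09 and C1qb by -0.31 ± 0.17 (SD, n = 4 mice, exact sign-flip test, p = 0.125 for each), while relative to the median gene the differences were 0.09 ± 0.14 and 0.03 ± 0.18. These cells were also shallower, with medians of 23206 and 28969 reads without and with Cx3cr1. Against homeostatic cells, the median C1qa count was lower in DAM without Cx3cr1 in 4 of 4 mice, by a log2 difference of -0.44 ± 0.21. The depth of those cells was nevertheless higher in 4 of 4 mice, by 0.26 ± 0.07. In DAM with Cx3cr1 the C1qa count was higher than in homeostatic cells in 4 of 4 mice, by 0.30 ± 0.06. The edgeR fit gave -0.21 (SE 0.84) and -0.27 (SE 0.68), both with an adjusted p of 1, but the direction of C1qa turned when any 1 mouse was left out (0.0086 to 0.16) and over the 7 states alone (0.00081). In the fit over all classes 0 of 313 genes passed (percent called 0), with 19 at an unadjusted p below 0.05. With DESeq2 11 genes passed and with limma 36. C1qb was not found in all of these cells, with reads in 89.6% and 91.2% of cells of the mice numbered 2, whereas among the mice numbered 1 the share was 98.5% in Abi3+/+ and all 59 cells held reads in Abi3-/-.

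Cells with Apoe alone, of the 3 DAM genes, had a share of C1qa near that of homeostatic microglia. They held 8.02%, 6.94%, 7.64% and 8.78% of reads as C1qa in the order of mice above, which differed from homeostatic cells by a mean log2 value of -0.0037 ± 0.030 (SD, n = 4 mice) with 2 mice on each side. IEG-high homeostatic cells had a slightly lower share of both genes than IEG-low cells in 4 of 4 mice, by -0.09 ± 0.05 for C1qa and -0.11 ± 0.04 for C1qb, and an edgeR adjusted p of 1 for each, where 0.319% of genes passed. Less the median gene, these differences were -0.05 ± 0.05 and -0.06 ± 0.05 (SD, n = 4 mice), lower in 4 of 4 mice. Median reads per cell went the other way and were higher in IEG-high cells in 4 of 4 mice, by 0.15 ± 0.08 for C1qa and 0.15 ± 0.05 for C1qb, as was the depth of these cells, and over Trem2 reads C1qa differed by 0.02 ± 0.07 with 2 mice on each side. The MHC class II state, with 25 to 171 cells per mouse, had 7.34%, 4.93%, 5.57% and 5.08% of reads as C1qa, lower than homeostatic cells in 4 of 4 mice, but 0.10 ± 0.07 above the median gene. The mean log2 difference in share was -0.47 ± 0.28, and -0.27 ± 0.15 as a share of reads of genes in no class rule. By median reads per cell, this state held more C1qa in 3 mice and less in 1, with a mean of 0.11 ± 0.48. Its edgeR values were 0.02 for C1qa and -0.02 for C1qb (adjusted p = 1 for both, 11.8% of genes called). The direction of C1qa was kept in 3 of 17 alternatives and turned when any 1 mouse was left out (-0.18 to -0.011). Over the 7 states with library sizes alone both genes were called lower, at -0.27 for C1qa (adjusted p = 0.013) and -0.32 for C1qb (adjusted p = 0.034), where 25.7% of 253 genes were called lower.

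Cycling microglia, with 11 to 51 cells per mouse, held a smaller share of reads as C1q than homeostatic cells, also relative to the median gene, but not fewer C1q reads per cell in every mouse. C1qa made up 5.86%, 4.50%, 6.70% and 6.70% of their reads and C1qb 5.73%, 1.73%, 5.48% and 2.05%, both below homeostatic cells in 4 of 4 mice. The median cycling cell held 2376, 989, 1748 and 1725 C1qa reads and 1677, 400, 1167 and 407 C1qb reads, above the homeostatic medians in the mice numbered 1 and below them in those numbered 2, while its depth was above that of homeostatic cells in 4 of 4 mice. Less the median gene, the log2 difference was -0.28 ± 0.19 for C1qa and -0.29 ± 0.27 for C1qb (SD, n = 4 mice, exact sign-flip test, p = 0.125 for each). Over the 7 states alone edgeR gave -0.36 for C1qa (SE 0.07, adjusted p = 0.00060) and -0.37 for C1qb (SE 0.10, adjusted p = 0.0083), where 13.8% of 253 genes were called lower, and library sizes alone gave -0.37 and -0.38. In the fit over all classes the values were -0.74 (SE 0.75, adjusted p = 0.71) and -0.75 (SE 0.61, adjusted p = 0.61), where 10.2% of 313 genes passed. Leaving out any 1 mouse brought them to between -0.43 and -0.27 for C1qa and between -0.49 and -0.25 for C1qb.

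Macrophages and monocytes carried C1q in a minority of cells. The 14, 37, 17 and 19 cells of Abi3-/- mice 1 and 2 and Abi3+/+ mice 1 and 2 had 1.43%, 0.237%, 0.894% and 1.46% of their reads as C1qa and 1.57%, 0.117%, 0.640% and 0.463% as C1qb. Each of these values was below that of every microglial state of the same mouse. In the edgeR fit C1qa was lower than in homeostatic and DAM microglia by -2.88 (SE 0.82, adjusted p = 0.0048) and C1qb by -2.72 (SE 0.66, adjusted p = 0.0013), where 18.2% of genes were called lower. Without Abi3+/+ mouse 1 both calls were lost, at -2.45 (adjusted p = 0.11) and -2.20 (adjusted p = 0.067).

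Nearly all cells of this class with C1q also had Trem2. C1qa was read in 21 of the 42 with a Trem2 read (exact 95% interval 34.2% to 65.8%) and in 2 of the 45 without one (4.44%, 0.543% to 15.2%), and C1qb in 23 and 1. Cd163, a scavenger receptor of border macrophages, marked a C1q-rich group of 30 cells, with 5.27%, 1.35%, 1.56% and 3.12% of reads as C1qa in the 4 mice. Ccr2, a chemokine receptor of monocytes, was read without Cd163 in 56 cells, of which 7 held C1qa, with 0.615%, 0%, 0.233% and 0.0693% of reads. Both C1q genes were read together in 22 cells, C1qa alone in 1 and C1qb alone in 2. The class was deep, with a median of 41666 reads per cell against 21366 in microglia, and whether a droplet or well of this class held 2 cells was not tested.

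T cells and neutrophils are not known as sources of C1q, and served to measure the reads that reach other cells. T cells had 0.123%, 0.396%, 0.304% and 0.0540% of reads as C1qa and 0.103%, 0.177%, 0.245% and 0.0140% as C1qb in Abi3-/- mice 1 and 2 and Abi3+/+ mice 1 and 2. Over all mice that was 2.91% of the microglial level for C1qa and 3.14% for C1qb. Trem2 stood at 3.47% and Cx3cr1 at 2.57% of theirs. The level differed between mice, from 0.679% to 6.88% of the microglial one for C1qa, and in Abi3+/+ mouse 2, the lowest, C1qb stood at 0.582%, Trem2 at 1.72% and Cx3cr1 at 0%. In the edgeR fit T cells were below homeostatic and DAM microglia by -5.23 for C1qa (SE 0.95, adjusted p = 2.3e-05) and -5.14 for C1qb (SE 0.77, adjusted p = 1.5e-06), where 28.8% of genes were called lower. Without Abi3+/+ mouse 1 the values were -4.48 and -4.33, both still called.

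Most of these reads sat in a few T cells. C1qa was read in 29 of 314 T cells (9.24%, exact 95% interval 6.27% to 12.99%) and C1qb in 23 (7.32%, 4.70% to 10.8%), with median depths of 16871.5 reads in T cells and 21366 in microglia. Of all C1qa reads in T cells, 93.1% lay in the 26 cells that also had a Trem2 read, and 79.2% in the 5 cells with most. The largest T cell count, 2109 C1qa reads, was above the median of microglia, 1496. In the 288 T cells without Trem2, C1qa was 0.0155% and C1qb 0.00923% of reads, which is 0.224% and 0.228% of the microglial level, and 5.90% and 5.21% of those cells had a read. Cells with both genes numbered 9, cells with C1qa alone 20 and cells with C1qb alone 14.

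Neutrophils were counted mainly in 1 mouse, with 87 of 117 cells in Abi3-/- mouse 2 and 19 in Abi3+/+ mouse 2. C1qa was 0.241% and C1qb 0.0720% of their reads in Abi3-/- mouse 2. In Abi3+/+ mouse 2, C1qa was found in 0 of 19 cells (exact 95% upper limit 17.6% of cells with enough reads to be listed) and C1qb in 1. Of all C1qa reads in neutrophils 95.7% lay in the 15 cells with a Trem2 read, and in the 102 others C1qa stood at 0.128% of the microglial level. The edgeR values were -5.07 for C1qa (SE 1.34, adjusted p = 0.0023) and -5.36 for C1qb (SE 1.11, adjusted p = 0.00020), where 30.4% of genes were called lower, and they rest on these 2 mice. Without Abi3+/+ mouse 1 they were -3.97 and -4.26, and without Abi3-/- mouse 1 -4.27 and -4.58, all still called (adjusted p at most 0.046), although these mice gave no neutrophil sum. Without Abi3+/+ mouse 2 they were -3.20 and -3.58, and without Abi3-/- mouse 2 C1qb was at -8.30 and C1qa at 0 reads. Each of the last fits holds 1 neutrophil library, assumed to vary like the other classes, and says nothing of stability.

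Macrophages or monocytes were set beside this level. Those with a Trem2 read held 1.77% of reads as C1qa and 1.15% as C1qb pooled over mice, against 1.88% and 1.19% in the 26 T cells with a Trem2 read, and the difference was not tested. By mouse the C1qa share of the former was 2.77%, 0.476%, 2.79% and 2.88%. The median cell with a C1qa read held 784 reads of it among macrophages or monocytes and 69 among T cells, and the 5 cells with most held 51.1% and 79.2% of all C1qa reads of these classes. Outside microglia, C1qa was found in 5.90% of the T cells without a Trem2 read and in 12.1% of the 174 cells with neither Trem2 nor a lineage, at median depths of 16817 and 13074 reads. Microglia were defined by a Trem2 read, so these shares are a description beside their 99.8%. Cells that held microglial genes beside those of another lineage were kept, as no doublet caller was run beyond the limit on reads.

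The comparison of genotypes asked whether loss of Abi3 changes C1q in microglia of 5XFAD mice. In all microglia the edgeR difference, Abi3-/- minus Abi3+/+, was 0.05 for C1qa (SE 0.19, adjusted p = 0.97) and 0.33 for C1qb (SE 0.73, adjusted p = 0.97). Neither gene differed by more than the spread between mice, and 0 of 328 genes passed (percent called 0), while 20 had an unadjusted p below 0.05. The other tools called 9 (DESeq2) and 0 genes (limma), neither C1qa nor C1qb among them. The share of reads was higher in Abi3-/- than in Abi3+/+ among the mice numbered 1, by 0.15 for C1qa and 0.26 for C1qb on the log2 scale, and lower among those numbered 2, by -0.47 and -0.12. In TMM-normalized log2 CPM these differences were 0.30 and -0.21 for C1qa and 0.40 and 0.14 for C1qb. For mice of the same number, the direction thus differed between numbers for C1qa on both scales, and for C1qb only as a share. Between mice of different numbers, C1qb turned on the TMM scale too. It was 14.6 in Abi3-/- mouse 2 against 15.7 in Abi3+/+ mouse 1. The other way round, it was 16.1 in Abi3-/- mouse 1 against 14.4 in Abi3+/+ mouse 2. Leaving out each mouse in turn, the edgeR value of C1qb ranged over -0.71 to 1.12. For C1qa the edgeR value also turned with the scaling, to -0.15 with library sizes alone.

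The genotypes overlapped among homeostatic microglia and DAM as well. Among homeostatic microglia C1qa was 7.46% ± 0.908 of reads in Abi3-/- and 8.29% ± 1.04 in Abi3+/+ (SD, n = 2 mice each), with an edgeR difference of -0.08 (SE 0.25, adjusted p = 0.94), and C1qb differed by 0.20 (SE 0.61, adjusted p = 0.94). Among DAM C1qa was 6.07% ± 1.64 and 5.77% ± 0.746, with a difference of 0.02 (SE 0.23, adjusted p = 0.99), and C1qb differed by 0.31 (SE 0.83, adjusted p = 0.95). The signs turned with the mouse left out. In homeostatic cells the values ranged over -0.26 to 0.089 for C1qa and -0.69 to 0.82 for C1qb. In DAM they ranged over -0.16 to 0.20 and -0.80 to 1.39. Within the mice numbered 1 and those numbered 2, the log2 share in Abi3-/- over Abi3+/+ was 0.46 and -0.36 for C1qa in DAM and 0.49 and 0.16 for C1qb, higher in both, against 0.20 and -0.05 for C1qb in homeostatic cells. The edgeR test passed 0 of 261 and 0 of 282 genes in these states (percent called 0), with 21 and 8 at an unadjusted p under 0.05, while DESeq2 called 12 and 1 and limma 0 in each. The DAM-minus-homeostatic difference itself did not differ detectably between genotypes, with an interaction of 0.07 for C1qa (SE 0.17, adjusted p = 0.96) and 0.12 for C1qb (SE 0.24, adjusted p = 0.96), and 0 of 265 genes passed (percent called 0), with 23 at an unadjusted p below 0.05. With DESeq2 7 genes passed and with limma 0. As a share of reads the DAM-minus-homeostatic difference was less negative in Abi3-/- than in Abi3+/+ within both numbers, at -0.17 against -0.53 and -0.47 against -0.52 for C1qa, and for C1qb at the values given above. In cycling cells, which were not tested between genotypes, the C1qa shares of both Abi3-/- mice given above lay below those of both Abi3+/+ mice, with 11 to 51 cells per mouse. The C1qb shares overlapped there. How many other panel genes separate the genotypes in these cells was not counted, so no genotype difference is read from this. With 2 mice per genotype, p-values measure the spread between these mice.

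Within a mouse and state, C1qa and C1qb varied together from cell to cell. The Pearson correlation of log2 reads per 10000, a description over cells of 1 library that share a total, was 0.24, 0.30, 0.25 and 0.32 in IEG-low homeostatic cells of Abi3-/- mice 1 and 2 and Abi3+/+ mice 1 and 2. It was 0.47, 0.67, 0.58 and 0.57 in DAM with Cx3cr1, above the homeostatic value in 4 of 4 mice. In cells with Apoe alone it was 0.65, 0.62, 0.67 and 0.71, but the rank correlation there was 0.19, 0.47, 0.27 and 0.35 in the order of mice above. In DAM with Cx3cr1 the rank correlation was 0.43, 0.72, 0.58 and 0.65.

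C1qb was the closest partner of C1qa among widely read genes in nearly all groups of cells. Over 23 groups of 50 or more cells of 1 mouse and state, C1qb correlated with C1qa more than did each of 14 to 29 other genes read in 90% of the cells or more, in 22 of them. The exception was IEG-high homeostatic cells of Abi3+/+ mouse 2, at 0.110, where Selplg, the adhesion ligand PSGL-1, was slightly above it at 0.111. With every cell thinned, Selplg was also above C1qb in IEG-high homeostatic cells of Abi3-/- mouse 1, at 0.187 against 0.183. In DAM with Cx3cr1 the highest of the other genes was again Selplg, at 0.38, 0.41, 0.37 and 0.30. The ratio of the 2 genes within single homeostatic IEG-low cells had an SD of 0.58 and 0.63 on the log2 scale in the mice numbered 1 and of 0.80 and 0.89 in those numbered 2. C1qa exceeded C1qb in 63.7% and 71.4% of those cells in the mice numbered 1, and in 96.6% and 98.4% in the mice numbered 2.

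**Figure D5:**
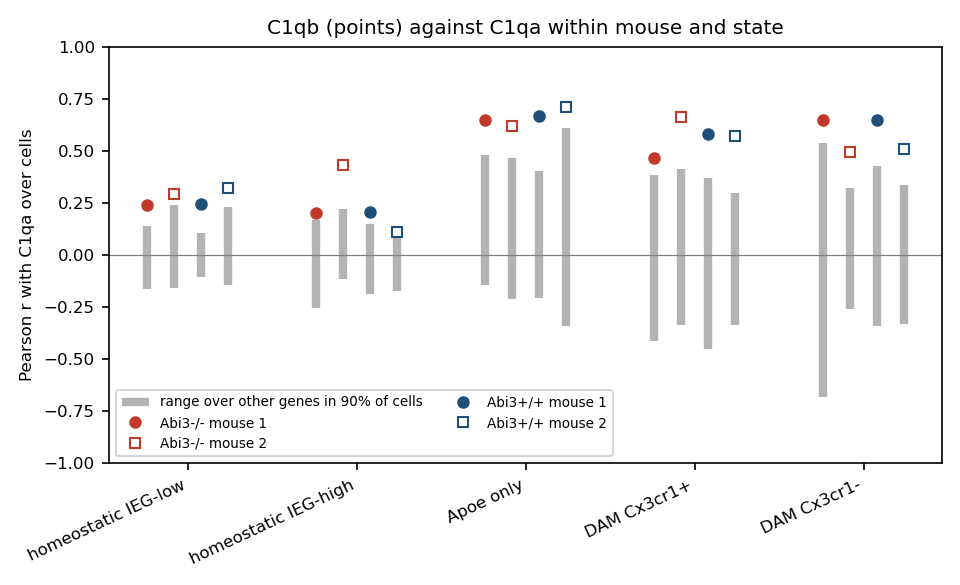
Pearson r over cells between C1qa and C1qb (points, y axis) within each mouse and state, with grey bars for the range of r between C1qa and the other genes read in 90% of cells or more. The states shown are homeostatic IEG-low and IEG-high, Apoe alone, and DAM with and without Cx3cr1. In IEG-high homeostatic cells of Abi3+/+ mouse 2, the point (0.110) lies just below the upper end of its bar (0.111). Every other point lies above its bar. The points range from 0.11 there to 0.71 in cells with Apoe alone of Abi3+/+ mouse 2. The highest r of all groups, 0.87 in the MHC class II state of Abi3+/+ mouse 1, is not drawn. In that state the rank correlation over 61 cells was 0.52.

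Across states the 2 genes also followed each other most closely. Over 28 sums of 1 mouse and state, with log2 CPM centred within mouse, C1qb had the highest r with C1qa of 289 genes, at 0.96. Next for C1qa came Stat3 (0.95), a transcription factor of cytokine signalling, Entpd1 (0.94), the ectonucleotidase CD39, Tmem173 (0.93), which encodes the DNA sensor adaptor STING, and Junb (0.93), an immediate early gene. For C1qb the order after C1qa was Stat3 (0.91), Tmem173 (0.91), the receptor chain Il6ra (0.90) and the RNA sensor Tlr7 (0.89). The sums of a library share its total reads, and these values are descriptions with no test.

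Among the other complement genes on the panel, C3 encodes the central component that C1q activation cleaves. It was barely read in homeostatic microglia, at 0.0040%, 0.0020%, 0.00030% and 0.0014% of reads in Abi3-/- mice 1 and 2 and Abi3+/+ mice 1 and 2. In DAM it was at 0.0094%, 0.011%, 0.0069% and 0.013%, higher in 4 of 4 mice, and the edgeR difference was 3.76 (SE 1.07, adjusted p = 0.012), or 3.58 (SE 1.17, adjusted p = 0.014) over the 7 states alone. Few cells carried these reads, 0.11% to 0.82% of homeostatic cells and 3.5% to 4.5% of DAM by mouse. The MHC class II state was also called higher than homeostatic cells, by 4.21 (SE 1.17, edgeR adjusted p = 0.017), where 11.8% of 313 genes passed. Over the 7 states alone its value was 4.22 (SE 1.28, adjusted p = 0.012). Macrophages or monocytes held 0.132% to 0.435% of reads as C3, above the values of homeostatic microglia and DAM, while their C1q was low. Neutrophils held 0.118% in Abi3-/- mouse 2 and 0.133% in Abi3+/+ mouse 2, and their C1q was low as well.

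Receptors of complement fragments followed other patterns. Itgam, which encodes CD11b of complement receptor CR3, made up 0.914%, 1.07%, 1.04% and 0.968% of homeostatic reads and 0.587%, 0.528%, 0.432% and 0.445% of DAM reads, lower in 4 of 4 mice, at -0.37 (SE 0.24, adjusted p = 0.35) in the edgeR fit over all classes and -0.62 (SE 0.09, adjusted p = 4.2e-06) over the 7 states alone. Its partner Itgb2 gave 0.39 (SE 0.14, adjusted p = 0.047) and, over the 7 states alone, 0.13 (adjusted p = 0.13), although its share of reads was lower in DAM in 4 of 4 mice, for example 0.452% against 0.567% of homeostatic reads in Abi3-/- mouse 1. C5ar1, the receptor of C5a, gave 0.02 and -0.28, with no call in either, while its share of reads was lower in DAM in 4 of 4 mice, for example 0.0779% against 0.116% of homeostatic reads in Abi3-/- mouse 1. It was higher in neutrophils than in microglia by 2.66 (SE 0.61, adjusted p = 0.00066), where 14.4% of 313 genes were called higher. Fcna, a lectin pathway ficolin, was found mainly in macrophages or monocytes, at 0.0020% to 0.0953% of reads, and Cr2, complement receptor 2, was at 0% in microglia, macrophages or monocytes, T cells and neutrophils. Of the 5 other complement genes with reads in these cells, 2 were called higher in DAM in the fit over all classes (C3 and Itgb2, the latter not over the 7 states and against its share of reads) and 0 lower, and over the 7 states alone 1 (C3) was called higher and 1 (Itgam) lower, beside 14.7% and 3.51% of all genes called higher and lower in the first fit and 24.1% and 24.5% in the second. Itgax, a chain of CR4, was part of the DAM rule and was left out there. Between genotypes, 0 of the 6 other genes tested in microglia, Itgax among them, passed, with a median of 0.12 beside 0.00011 over all 328 genes.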

How the data were processed

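Reads of a targeted panel of 397 mouse immune genes were counted in single brain cells of 4 mice. The authors made the counts with the BD Rhapsody pipeline at default settings and deposited, for each mouse, a table of cells by genes holding reads left by a correction of amplification and sequencing errors that works on their distribution. These are counts of reads and not of molecules, so that amplification enters them and the reads of 1 cell are not independent. The submitters' processing notes name the mm10 build. Cells with 40 or more genes and at most 59300 reads were kept, as no cell filter or cell type came with the counts, and were classed by detected marker genes. Reads were summed per mouse and class (10 or more cells) and tested with the quasi-likelihood test of edgeR 4.0.16 in R 4.3.3, with TMM scaling, the default filter on low counts, the mouse as a block between classes, and Benjamini-Hochberg adjustment over all genes tested at 0.05. The genes of the class rules were left out of the tests between classes. Alternatives were DESeq2 1.42.0, limma 3.58.1 on mean log-normalized values, library sizes alone, no filters, thinning to 10000 reads, Seurat 5.3.0 clusters built without C1qa and C1qb, and leaving out each mouse. The scripts were tested on simulated data. With a low spread between mice (dispersion 0.02), the genotype test recovered 98% of log2 changes of 1 and 100% of those of 2. With a higher spread (dispersion 0.2) it recovered 13% and 55.1%. Where mice vary that much, the absence of a call between genotypes does not show equal levels. The genes described were C1qa, C1qb, the complement genes of the panel and the 5 genes most like each. The members, the lists and the tests were chosen with earlier results of these data known.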

Additional observations from a re-analysis of the deposited data

Results flagged for a closer look

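C1qa and C1qb reads were also present in cells that the filter left out, which entered only the alternative without a cell filter. Cells with fewer than 40 genes numbered 870 and 1502 in Abi3-/- mice 1 and 2 and 1917 and 1385 in Abi3+/+ mice 1 and 2. C1qa made up 1.36%, 1.52%, 1.28% and 1.20% of their reads in that order, and C1qb 1.43%, 0.527%, 1.22% and 0.328%. Cells with more than 59300 reads numbered 214, 475, 491 and 498, with C1qa at 3.96%, 2.75%, 3.81% and 3.99% of reads and C1qb at 3.78%, 0.743%, 3.62% and 0.799%. In each mouse both genes took a larger share in the cells above the read limit than in those with few genes, and a smaller share in both than in microglia. In both sets C1qb was lower in the mice numbered 2 than in those numbered 1, as in the cells that were kept.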

How the results depend on the processing

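Over 38 results and 420 alternatives, 336 kept the direction and the side of the threshold. Among these, 8 asked for 5 reads before C1qa or C1qb counted as detected. As the lowest positive counts were 8 to 21 reads, those 8 could not change and say nothing of stability. The lower C1qa and C1qb of T cells and neutrophils than of microglia kept direction and side in 14 of 14 alternatives each. For neutrophils, leaving out Abi3-/- mouse 2 or Abi3+/+ mouse 2 left 1 library and is no test of stability. Most of the 71 changes of sign concern differences between microglial states or genotypes that were not called, and the cause was not tested. With library sizes alone, DAM against homeostatic cells gave -0.48 for C1qa and -0.61 for C1qb, Apoe alone -0.0065, MHC class II -0.28 and genotype in all microglia -0.15 for C1qa. With limma these were -0.62 and -0.93, -0.068 for C1qa and -0.024 for C1qb, -0.59 and -0.16, and C1qb in cycling cells was called at -0.86. With no cell filter they were -0.0049 and -0.18 in DAM, 0.042 for C1qa in DAM without Cx3cr1, -0.014 with Apoe alone, -0.091 for MHC class II and -0.046 for genotype in DAM, and 96.6% and 95.5% of microglia had a read of C1qa and C1qb. With clusters DAM gave -0.12 and -0.19, MHC class II -0.073 and genotype in homeostatic cells 0.041 for C1qa, and no cluster matched Apoe alone or DAM without Cx3cr1. Over the 7 states with TMM, C1qb in DAM was -0.10, C1qa in DAM without Cx3cr1 0.00081 and in MHC class II -0.11, and cycling cells were called at -0.36 and -0.37. Over the 7 states with library sizes alone, DAM gave -0.48 and -0.61, Apoe alone -0.0047, MHC class II -0.27 and -0.32 and cycling -0.37 and -0.38, and with the class genes kept in those sizes -0.50 and -0.63, -0.0015, -0.46 and -0.50, and -0.41 and -0.42. With no filter on low counts C1qb in DAM was -0.10, C1qa in DAM without Cx3cr1 0.027 and in MHC class II -0.049, and with thinned cells these were -0.042, 0.0099 and -0.075. DESeq2 gave 0.14 and 0.093 in DAM without Cx3cr1, 0.096 for C1qb in MHC class II and -0.017 for the C1qa interaction. C1qa in MHC class II was -0.0047 with the class genes kept, and C1qb 0.12 without the mouse block.

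Leaving out each mouse in turn moved C1qa and C1qb in DAM over -0.0018 to 0.073 and -0.20 to 0.037, in DAM without Cx3cr1 over 0.0086 to 0.16 and -0.065 to 0.13, C1qa with Apoe alone over -0.027 to 0.058 and in MHC class II over -0.18 to -0.011. Cycling cells ranged over -0.43 to -0.27 and -0.49 to -0.25. Macrophages or monocytes ranged over -3.22 to -2.33 and -3.14 to -2.19, and both calls were lost without Abi3+/+ mouse 1. Genotype in all microglia ranged over -0.17 to 0.21 and -0.71 to 1.12, in homeostatic cells over -0.26 to 0.089 and -0.69 to 0.82, in DAM over -0.16 to 0.20 and -0.80 to 1.39, and the C1qb interaction over -0.17 to 0.43. Without Abi3-/- mouse 2 the neutrophil value of C1qa was -21.81, since the remaining library was at 0, and it is no bound.

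The mice share numbers in the labels without a stated meaning, and the differences between mice 1 and 2 of the 2 genotypes correlated at 0.158 over 328 genes. With the number as a replicate block, genotype in all microglia was 0.043 for C1qa (edgeR adjusted p = 0.99) and 0.27 for C1qb (SE 0.12 against 0.73 without the block, adjusted p = 0.63), in homeostatic cells -0.083 and 0.14 and in DAM 0.0082 and 0.28, and no call of C1qa or C1qb changed.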
